A study of Mus musculus with 27 samples.

Results

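Neural progenitors in which a mutant form of the transcription factor Nkx2.2 had been switched on were compared with uninduced progenitors. The comparison uses 5 of the 27 libraries of the series: 2 of induced mutant cells and 3 of controls. All were mouse embryonic stem (ES) cells differentiated for 4 days into motor neuron progenitors and sequenced as whole RNA from the mixed culture. The mutant libraries, here iSDmut, came from the mES iSDmut line, which carries a doxycycline-inducible, FLAG-tagged Nkx2.2 with the SD domain mutations of the Nkx2.2SDmut mice. Doxycycline was given at 1 µg/ml late on the day before harvest, for 14 to 16 h. The controls, called pMN, were untreated cells of the mES iNkx2.2 line, which carries the wildtype transgene. That line induced in the same way, iNkx2.2 (3 libraries), entered the model to help estimate the spread and served where the mutant had to be set against wildtype Nkx2.2. Because treated and untreated cells came from different lines, the mutant protein, doxycycline and the line cannot be told apart in any difference below. Nothing in the labels says that the replicates were separate cultures, so the p-values measure the spread between these libraries, which may be technical. In bulk RNA, fewer cells of a type and less RNA per cell cannot be told apart.

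In the ventral neural tube a gradient of Sonic hedgehog, a secreted signal, divides progenitors into domains marked by transcription factors. The motor neuron progenitor domain expresses Olig2, and the domain next to the floor plate expresses Nkx2.2. Nkx2.2 is known mainly as a repressor that recruits Groucho/TLE corepressors and shuts off Olig2 and Pax6, so that cells make V3 interneurons or, in the hindbrain, visceral motor and serotonergic neurons. The SD domain is a short stretch shared by members of the NK2 family, outside the homeodomain that binds DNA.

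The controls carried the markers of their labelled identity. In FPKM, the authors' value per length and depth, pMN libraries had Olig2 at 96.8 ± 19.6, Pax6 at 33.0 ± 9.57, Nkx6-1 at 63.5 ± 19.4, Sox1 at 19.4 ± 2.94, Sox2 at 73.7 ± 3.90 and Nes at 28.7 ± 1.78 (SD, n = 3). Total counts were 17757991 to 24021440 in pMN, 17795653 and 23613573 in iSDmut and 21740964 to 46840701 in iNkx2.2, and mitochondrial genes took 1.66% to 3.10% of counts. Per the titles, iSDmut 1 was sequenced in lane 2 with pMN 1 and 2, pMN 3 in lane 4, and iSDmut 2 alone in lane 3. Some markers of other cell types moved with the group. The summed level of 9 endoderm genes was 81.5 to 141 CPM (counts scaled to an equal effective library size by TMM) in pMN and 20.5 and 60.3 in iSDmut 1 and 2. For 7 mesoderm genes it was 11.9 to 16.0 against 3.36 and 5.94, and for 9 pluripotency genes 20.4 to 32.3 against 11.8 and 17.9. The summed level of 8 neural crest genes was 35.6 to 42.6 CPM in pMN and 35.7 and 46.4 in iSDmut, and that of 9 dorsal neural tube genes 7.68 to 17.7 against 3.86 and 12.8. Of the pluripotency markers, Pou5f1 and Utf1 were at 0 in iSDmut 1 and Nanog at 0 in iSDmut 1 and pMN 1. Of these lists only Esrrb, a pluripotency factor at 0.0423 to 1.46 CPM in pMN and 7.95 and 4.16 in iSDmut, was called, and it was higher (edgeR adjusted p 0.0478, called in 1 of 8 fits that each left out 1 library). The part of this shift in the results below was not tested.

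Nkx2-2, the induced gene (chromosome 2, 147177546 to 147194243, GRCm38), was at 11.6, 5.40 and 10.7 CPM in pMN 1, 2 and 3 and at 248 and 245 CPM in iSDmut 1 and 2. Both induced libraries lay far above the controls and close to each other. Its log2 fold change was 4.72 (± 0.245 SE; Benjamini-Hochberg adjusted p 4.01e-05 by edgeR's quasi-likelihood test). Reads of the transgene and of the endogenous gene, and of any antisense transcript, cannot be told apart here.

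Of 15653 genes tested, 554 (3.54%) were called at an adjusted p under 0.05 in edgeR, 297 higher (1.9%) and 257 lower (1.64%) in iSDmut. Counts of called genes in the lists below are to be read against these shares. With total library size in place of TMM scaling the split was 342 higher and 164 lower. The increases were larger: the median fitted log2 fold change was 1.30 over the higher genes and -0.89 over the lower ones, and 199 genes were at least 2-fold higher against 114 at least 2-fold lower. In each of the 554 genes the iSDmut libraries lay entirely above or entirely below the pMN libraries, a separation that 36.4% of all genes tested also showed. Over the called genes the medians of the 2 iSDmut libraries were similar, a likeness that the choice of called genes favours. The higher genes had a median difference from the pMN mean, in log2(CPM + 1), of 0.96 in iSDmut 1 and 1.07 in iSDmut 2, and the lower genes of -0.82 and -0.82. The count fell to 171, 253 and 314 without pMN 1, 2 or 3, to 306 and 349 without iSDmut 1 or 2, and to 305 without iNkx2.2 replicate 1.

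**Figure D1:**
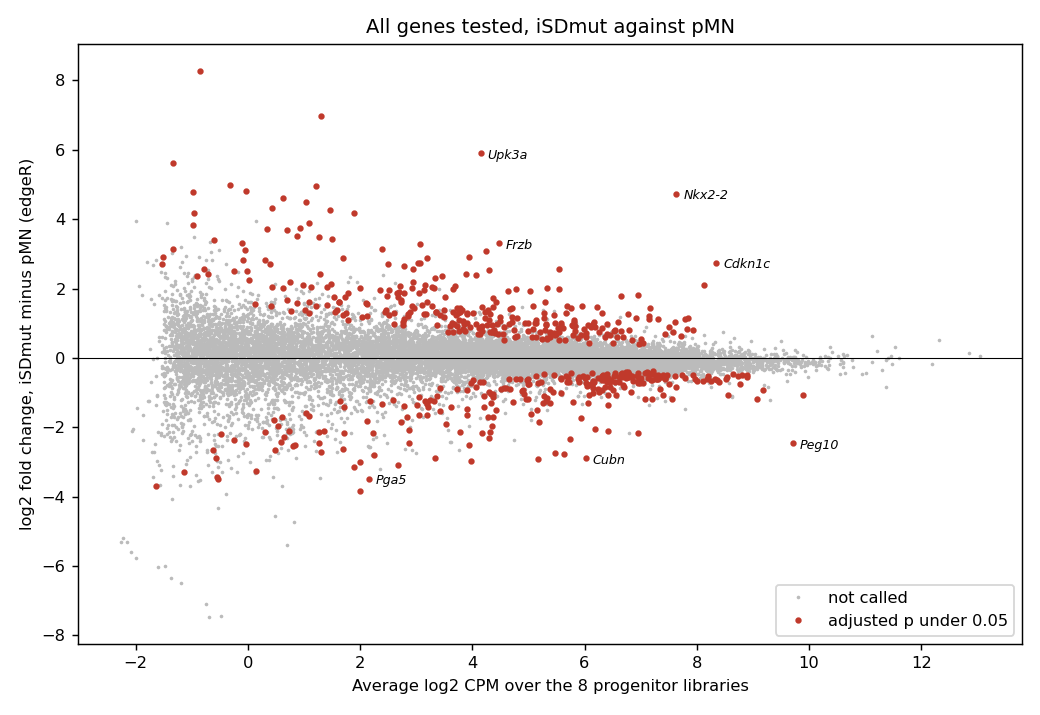
Average log2 CPM over the 8 progenitor libraries (x) against the log2 fold change of iSDmut over pMN from edgeR (y), 1 point per gene, with the 554 called genes in red. Nkx2-2 and Cdkn1c stand out among abundant transcripts that were higher and Peg10 among those that were lower.

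Progenitor domain factors, the homeodomain and bHLH proteins that set the borders between domains, were the first group examined. Of 20 listed, 17 were tested. Of those, 5 fell (Olig1, Pax6, Nkx2-9, Dbx2 and Nkx6-2) and 12 were not called. The called share was 29.4%, against 1.64% called lower over all genes tested. The median log2 fold change of the 17 was -0.96, against -0.014 over all genes tested. Pax6, a repressor that opposes Nkx2.2 at the border of its domain, was at 97.8, 161 and 95.1 CPM in pMN and at 25.1 and 9.77 in iSDmut 1 and 2. Every iSDmut library was below every control, and replicate 2 was the lower one; the log2 fold change was -2.77 (± 0.385 SE; adjusted p 0.00722 by edgeR). Olig1, the neighbour of Olig2 on chromosome 16, was at 45.9, 21.6 and 46.8 CPM in pMN and 7.06 and 2.87 in iSDmut (log2 fold change -2.96 ± 0.503 SE, adjusted p 0.0157 by edgeR). Nkx2-9, a close relative of Nkx2-2 in the same ventral domain, was at 69.7 to 97.6 CPM in pMN and 13.1 and 9.85 in iSDmut (log2 fold change -2.90 ± 0.444 SE, adjusted p 0.00945 by edgeR). Nkx6-2 had a log2 fold change of -1.31 and Dbx2, which marks a more dorsal progenitor domain and was at 0.946 to 2.61 CPM in pMN, of -2.49.

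Olig2, the defining factor of the motor neuron progenitor domain, did not pass the threshold with edgeR on all libraries. It was at 284, 200 and 277 CPM in pMN and at 87.1 and 25.6 in iSDmut 1 and 2, so that the groups did not overlap, but the induced libraries stood more than 3-fold apart. Its log2 fold change was -2.18 (± 0.571 SE; adjusted p 0.0741 by edgeR), -1.54 in the fit without iSDmut 2 (adjusted p 0.186) and -3.31 in the fit without iSDmut 1 (adjusted p 0.0311). That fit and DESeq2 were among the 3 of 16 alternatives that called it. Irx3, a factor of domains dorsal to it, was at 19.1 to 32.5 CPM in pMN and at 21.5 and 6.03 in iSDmut 1 and 2 (adjusted p 0.361), and Sp8 at 44.0 to 47.2 against 35.7 and 11.1 (adjusted p 0.183). For both, iSDmut 1 was within or near the control range and iSDmut 2 far below it. Nkx6-1, which is shared by the motor neuron and Nkx2.2 domains, was at 168 to 281 CPM in pMN and 210 and 164 in iSDmut (log2 fold change -0.27 ± 0.253 SE, adjusted p 0.599 by edgeR). Pax6 was called in 8 of 8 fits that each left out 1 library, Nkx2-9 in 7 (not without iSDmut 2), Olig1 in 6 (not without pMN 1 or iSDmut 2), Nkx6-2 in 4 and Dbx2 in 1. The count of 5 was 1 without iSDmut 2, 3 without pMN 1 or pMN 2, and 4 to 6 without each of the other libraries.

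**Figure D2:**
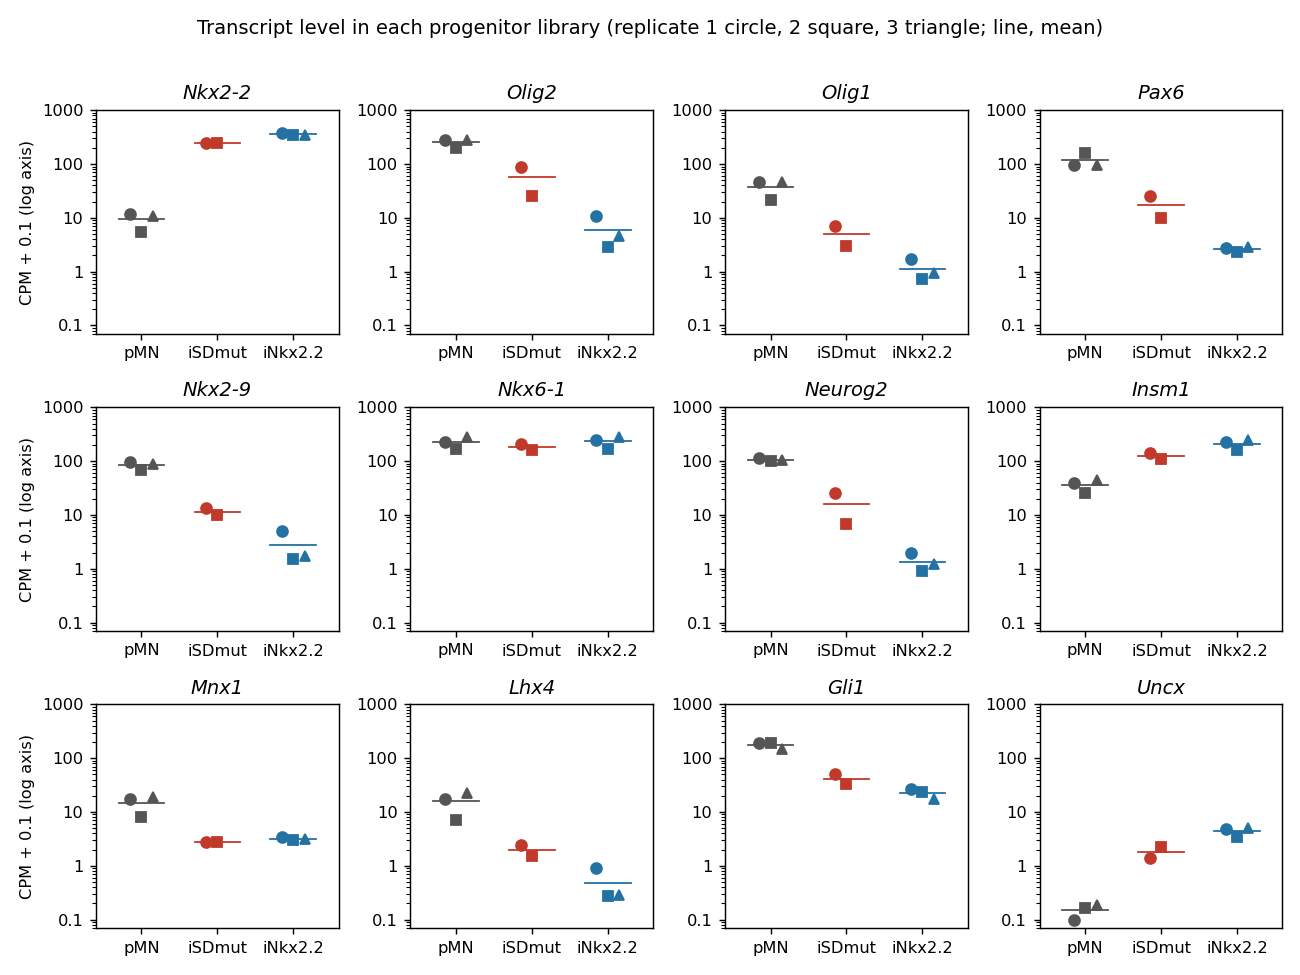
CPM plus 0.1 (log axis) of 12 regulators in each library of pMN, iSDmut and iNkx2.2; points are libraries, lines the group means, and levels compare within a panel only. Olig2, Pax6 and Neurog2 in iSDmut lay between the other groups with replicate 2 below replicate 1, while the groups overlapped for Nkx6-1.

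The proneural and neurogenic list held changes in both directions: of 16 members tested, 4 rose, 2 fell and 10 were not called. The called share was 37.5%, against 3.54% over all genes tested. Neurog2, a bHLH activator that drives motor neuron differentiation, was at 116, 98.8 and 105 CPM in pMN and at 25.4 and 6.69 in iSDmut 1 and 2. The controls were tightly grouped and the induced libraries almost 4-fold apart, and the log2 fold change was -2.75 (± 0.470 SE; adjusted p 0.0160 by edgeR). Insm1, a zinc-finger repressor of endocrine cells and newborn neurons, was at 38.6, 24.9 and 43.8 CPM in pMN and at 143 and 108 in iSDmut (log2 fold change 1.81 ± 0.242 SE, adjusted p 0.00630 by edgeR). St18, a relative of Myt1, was at 19.8 to 30.8 CPM in pMN and 62.9 and 83.5 in iSDmut (log2 fold change 1.45). Neurod4, a later bHLH factor, was at 98.1 to 133 CPM against 194 and 218 (log2 fold change 0.83). Bhlhe22 had a log2 fold change of 1.87, with 4.37 CPM in iSDmut 1 and 14.8 in iSDmut 2, and 0.73 without iSDmut 2 (adjusted p 0.249). Insm1 and St18 were called in 8 of 8 fits that each left out 1 library and Neurod4 in 7, all but the fit without iSDmut 2 (adjusted p 0.0635). Neurog2 was called in 5 of the 8, losing its call without any 1 pMN library (adjusted p 0.0536 to 0.0630).

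Motor neuron genes also divided. Of 19 tested, 2 rose (Aldh1a2 is one of them), 2 fell (Mnx1 and Lhx4) and 15 were not called. The median log2 fold change was -0.38, and 21.1% were called, against 3.54% over all genes tested. Mnx1, the homeodomain factor that marks somatic motor neurons (chromosome 5, 29473034 to 29478470, GRCm38), was at 17.1, 7.95 and 18.6 CPM in pMN and at 2.69 and 2.66 in iSDmut. The induced libraries were nearly equal and below each control (log2 fold change -2.45 ± 0.364 SE, adjusted p 0.00853 by edgeR). Lhx4, a LIM homeodomain factor of the same neurons, was at 17.5, 7.10 and 22.3 CPM in pMN and at 2.30 and 1.41 in iSDmut (log2 fold change -3.09 ± 0.635 SE, adjusted p 0.0333 by edgeR), and its call was lost without pMN 1, pMN 3, iSDmut 1 or iSDmut 2. Its partner Lhx3 was at 6.01 to 13.1 CPM against 2.97 and 0.665, and was not called (adjusted p 0.0583 by edgeR). It was called in 3 of 16 alternatives, among them DESeq2 and the fit without iSDmut 1 (log2 fold change -3.95, adjusted p 0.0249). Isl1, a LIM homeodomain factor of motor neurons, was at 28.6 to 67.1 CPM in pMN and 64.5 and 87.0 in iSDmut, with overlapping groups (adjusted p 0.439). Mnx1 was called in 8 of 8 fits without a library, and Aldh1a2, which makes retinoic acid and was at 2.69 and 7.44 CPM in iSDmut, in 1 of 8.

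Sequences upstream of genes that changed in both iSDmut libraries were examined for TNAAGTG, a core described for Nkx2.2 binding, on either strand within 250 bases before RefSeq starts (GRCm38). The core was present in 10.1% of 32851 such windows and in 17.5% of 251-base windows around the authors' 6473 final Nkx2.2 sites in MIN6, a mouse beta-cell line. Only 69.7% of the higher genes and 77.4% of the lower ones had a window, under the 80% needed, so a comparison of the sets is void. The windows of Mnx1, which fell, and Adamtsl2, which rose, each held 1 match, shown in capitals. These are examples: at least 1 window of Nkx2-2, Dnmt1, Esrrb, Mcm3, Sema3d, Syp and Uhrf1 also held a match and is not shown. Upk3a and Ptch1 are shown because a MIN6 site lay 14 bases before the start of Upk3a and 670 bases before a start of Ptch1; neither sequence has a match. Binding in progenitors was not analysed here, and a match describes only the letters. The windows shown overlapped 0 annotated exons, and that of Ptch1 lies in an intron of the annotated gene. They are the Mnx1 window at chr5:29478471-29478720 (minus strand), that of Adamtsl2 at chr2:27079129-27079378 (plus), that of Upk3a at chr15:85016891-85017140 (plus) and the Ptch1 site at chr13:63566280-63566530 (plus).
Mnx1: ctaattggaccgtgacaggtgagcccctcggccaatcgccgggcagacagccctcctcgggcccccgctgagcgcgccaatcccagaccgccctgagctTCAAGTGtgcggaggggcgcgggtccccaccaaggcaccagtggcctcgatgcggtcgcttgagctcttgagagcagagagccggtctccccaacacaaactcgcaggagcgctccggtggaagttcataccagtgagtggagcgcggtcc
Adamtsl2: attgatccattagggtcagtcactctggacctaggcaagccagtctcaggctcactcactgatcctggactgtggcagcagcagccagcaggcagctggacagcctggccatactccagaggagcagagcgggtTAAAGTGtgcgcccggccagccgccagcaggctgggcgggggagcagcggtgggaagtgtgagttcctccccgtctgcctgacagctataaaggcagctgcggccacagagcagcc
Upk3a: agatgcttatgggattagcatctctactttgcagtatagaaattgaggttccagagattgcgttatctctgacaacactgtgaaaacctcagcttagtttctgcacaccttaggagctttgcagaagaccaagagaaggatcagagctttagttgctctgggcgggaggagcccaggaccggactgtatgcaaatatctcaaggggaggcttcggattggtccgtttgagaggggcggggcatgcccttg
Ptch1 site: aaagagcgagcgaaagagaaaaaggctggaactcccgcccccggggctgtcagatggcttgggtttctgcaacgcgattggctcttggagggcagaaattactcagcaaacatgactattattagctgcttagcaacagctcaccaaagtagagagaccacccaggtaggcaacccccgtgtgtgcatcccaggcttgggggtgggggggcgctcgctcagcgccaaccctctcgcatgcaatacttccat

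The list for the neurons that Nkx2.2 progenitors give rise to held calls in both directions, the lower one being the progenitor domain factor Nkx2-9. Of the 8 V3 and serotonergic genes tested, Uncx and Insm1 rose, Nkx2-9 fell and 5 were not called; 6 of the 8 had negative log2 fold changes, with a median of -0.84. Insm1 is also a general neurogenic factor. Uncx, a homeodomain factor of V3 interneurons, was at 0, 0.0607 and 0.0847 CPM in pMN, at 1.29 and 2.16 in iSDmut and at 3.36 to 4.98 in iNkx2.2. It was close to absent from the controls and low but present in both iSDmut libraries (edgeR adjusted p 0.00342, called in 8 of 8 fits without a library). Sim1, the usual V3 marker, stayed at 0.056 and 0.249 CPM in iSDmut against 0.127 to 0.425 in pMN (adjusted p 0.774) and was at 0.895 to 1.41 in iNkx2.2. Of 11 floor plate genes, which mark the cells at the ventral midline, only Nkx2-9 was called. Foxa2, the floor plate determinant, was at 52.6 to 67.6 CPM in pMN and at 29.2 and 55.1 in iSDmut 1 and 2, and Shh at 3.43 to 4.61 against 2.07 and 5.99 (adjusted p 0.254 and 0.99). Without iSDmut 2, Foxa2 was called lower (log2 fold change -1.04, adjusted p 0.0263). In 10 of these 11 genes iSDmut 2 was above iSDmut 1. Of 15 genes listed for other interneurons, mostly V0, V1 and V2, Lhx5 and Lbx1 rose, both from very low levels. Lhx5 was at 0.169 to 0.303 CPM in pMN and 1.85 and 1.46 in iSDmut. Lbx1, a factor of dorsal interneurons, was at 0.111 to 0.466 against 1.01 and 3.33. Lhx5 was called in 5 and Lbx1 in 2 of the 8 fits without a library.

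The general neuronal genes that passed the test were all higher. Of 20 pan-neuronal genes, all of them tested, 4 rose (Syt1, Gap43, Stmn3 and Syp), 16 were not called, and the median log2 fold change was 0.69. The called share was 20%, against 1.9% called higher over all genes tested. In 11 of the 20 both iSDmut libraries lay above every pMN library, against 17.2% of all genes tested. Log2 fold changes were positive in 17 and negative in 3. Over the 20 genes the median difference from pMN was 0.96 in iSDmut 1 and 0.46 in iSDmut 2, and 18 of the 20 were lower in iSDmut 2. Syt1, the calcium sensor of synaptic vesicles, was at 1.503, 1.881 and 1.990 CPM in pMN and at 11.98 and 11.64 in iSDmut (log2 fold change 2.71 ± 0.226 SE, adjusted p 0.000702 by edgeR). Gap43, a growth cone protein, was at 54.0 to 70.2 CPM in pMN, 331 in iSDmut 1 and 97.7 in iSDmut 2. Its log2 fold change was 1.79 (adjusted p 0.0374) and only 0.66 without iSDmut 1 (adjusted p 0.134). Syp, a synaptic vesicle protein, and Stmn3, a microtubule regulator, had log2 fold changes of 0.92 and 0.99. Without iSDmut 1 or without pMN 2 the count of 4 was 1, and without pMN 1 or pMN 3 it was 2.

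Of 20 SoxB and radial glia genes, which mark undifferentiated neural cells, Slc1a3 and Sox2 fell and the median was 0.10. Slc1a3, a glutamate transporter of radial glia, was at 40.9, 44.6 and 40.1 CPM in pMN and 7.62 and 9.39 in iSDmut (log2 fold change -2.30 ± 0.161 SE, adjusted p 0.000344 by edgeR), and was called in 16 of 16 alternatives. Sox2 was at 192 to 198 CPM in pMN and 151 and 126 in iSDmut (log2 fold change -0.49, adjusted p 0.0463), a call lost in each fit without a library. Of 12 oligodendrocyte genes only Olig1 was called.

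The Sonic hedgehog pathway held the most calls among the lists. Of 20 genes, all tested, 8 fell (40%), 12 were not called and the median log2 fold change was -0.70. Over all genes tested, 1.64% were called lower. Among the transcription factors of the pathway, Gli2 was at 29.8, 35.7 and 38.4 CPM in pMN and at 7.28 and 4.91 in iSDmut (log2 fold change -2.51 ± 0.263 SE, adjusted p 0.00180 by edgeR). Gli1, itself a target of the pathway, was at 195, 190 and 151 CPM in pMN and at 50.1 and 32.8 in iSDmut (log2 fold change -2.11 ± 0.235 SE, adjusted p 0.00227 by edgeR). Gli3, which acts mostly as a repressor, was at 51.1 to 73.5 CPM against 21.2 and 30.8 (log2 fold change -1.31). All 3 Gli genes were thus lower in both induced libraries than in any control. Among receptors and inhibitors, the ligand receptor Ptch1 was at 573, 515 and 606 CPM in pMN and at 299 and 241 in iSDmut (log2 fold change -1.06 ± 0.153 SE, adjusted p 0.00789 by edgeR). Hhip, which also binds the ligand, had a log2 fold change of -1.04. The co-receptor Gas1 was at 44.2 to 75.8 CPM against 12.8 and 21.8 (log2 fold change -1.86). Mycn, a growth regulator downstream of the pathway, was at 103 to 108 CPM in pMN and 29.6 and 34.5 in iSDmut (log2 fold change -1.73 ± 0.139 SE, adjusted p 0.000590 by edgeR). Smo, Sufu, Kif7, Boc, Cdon and Disp1, which transmit or modulate the signal, were not called. Gli1, Gli2 and Mycn were called in 16 of 16 alternatives. Of the 8 fits without a library, Ptch1 was called in 8, Gas1 in 7 (not without iSDmut 1), Gli3 in 5 and Hhip in 2. The list's count was 5 or 6 without a pMN or iSDmut library and 3 within lane 2.

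**Figure D3:**
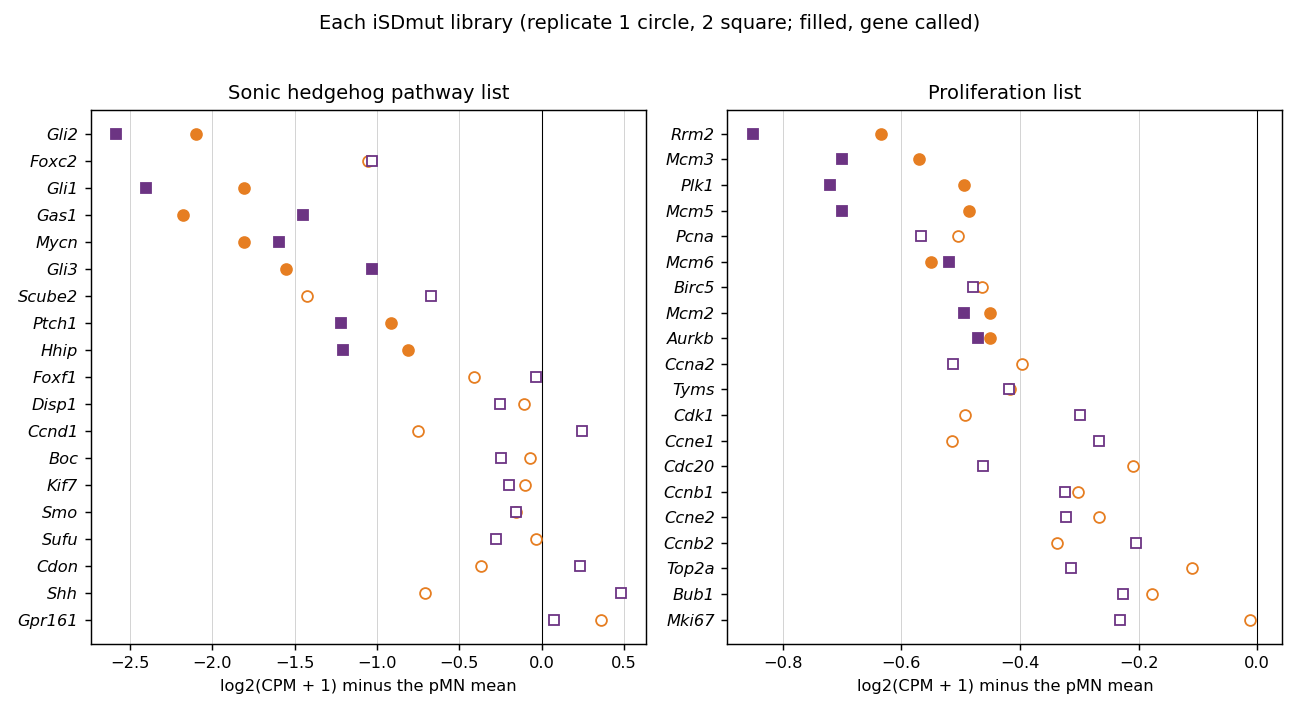
Difference of each iSDmut library from the pMN mean in log2(CPM + 1) for 19 of the 20 Sonic hedgehog pathway genes (left) and the 20 proliferation genes (right), filled where the gene was called. The 7 called pathway genes shown lie to the left of 0 in both libraries, from -0.81 (Hhip) to -2.58 (Gli2), while the proliferation genes lie between -0.01 (Mki67) and -0.85 (Rrm2).

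Other signalling lists held fewer calls. Of 27 Notch genes Jag1, Hey1 and Mfng rose and Dll4 fell (14.8% called, against 3.54% over all genes tested). Jag1, a ligand, was at 21.5, 25.1 and 18.7 CPM in pMN and at 62.3 and 70.2 in iSDmut (log2 fold change 1.61 ± 0.140 SE, adjusted p 0.000903 by edgeR). The ligand Dll4 was at 9.10 to 12.6 CPM against 3.42 and 2.91 (log2 fold change -1.84), and Hey1, a Notch target, at 38.8 to 58.1 against 103 and 126 (log2 fold change 1.27). The targets Hes1 and Hes5 were not called, at 57.2 and 64.8 CPM and at 47.6 and 25.6 CPM in iSDmut 1 and 2. Of 27 Wnt genes, Frzb rose and Sfrp2 and Dkk1 fell, all 3 of them secreted Wnt inhibitors. Frzb was at 4.84, 3.16 and 5.33 CPM in pMN and at 26.9 and 61.6 in iSDmut (log2 fold change 3.31 ± 0.324 SE, adjusted p 0.00140 by edgeR). Sfrp2 was at 92.2, 96.9 and 138 CPM in pMN and 19.0 and 23.9 in iSDmut (log2 fold change -2.34 ± 0.210 SE, adjusted p 0.000956 by edgeR). Dkk1 was at 0.789 to 1.19 CPM against 0 and 0.166, and was called in 1 of 8 fits without a library. Of 19 retinoic acid genes, Cyp26a1, the enzyme that degrades retinoic acid (126 to 259 CPM in pMN, 30.5 and 46.3 in iSDmut), and the receptor Rxra fell and Aldh1a2 rose. Each of those 3 calls was lost without any 1 pMN library.

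Axon guidance genes, the receptors and ligands that steer growing axons, were called in both directions, 3 higher and 4 lower of 31. That is 22.6%, against 3.54% called over all genes tested. The netrin receptors Unc5c and Dcc and the semaphorin receptor Plxna4 rose, and the ligands Sema3c, Sema3d, Sema3e and Efnb2 fell. Unc5c was at 1.36 to 1.56 CPM in pMN and 5.32 and 4.32 in iSDmut (log2 fold change 1.74, adjusted p 0.00873 by edgeR). In the authors' FPKM Unc5c was at 0.272 to 0.650 in pMN and 0.850 and 0.591 in iSDmut, so the groups overlapped. Sema3c was at 30.7, 41.3 and 30.5 CPM in pMN and 14.9 and 10.9 in iSDmut (log2 fold change -1.41, adjusted p 0.00814). Plxna4 was at 5.16 to 8.34 CPM against 35.1 and 20.9. Unc5c and Sema3c were called in 8 of 8 fits without a library, Plxna4 in 5 and the others in 0 to 4.

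Among cell cycle genes, 7 of 20 proliferation genes fell by small amounts and the inhibitor Cdkn1c rose. Of the 20 proliferation genes all had, with TMM scaling, negative log2 fold changes, with a median of -0.45. The 7 called were Rrm2, Mcm3, Plk1, Mcm5, Mcm6, Mcm2 and Aurkb, and 13 were not called. The called share was 35%, against 1.64% called lower over all genes tested. Rrm2, a subunit of the enzyme that makes DNA precursors, was at 567, 529 and 587 CPM in pMN and 361 and 310 in iSDmut (log2 fold change -0.74 ± 0.121 SE, adjusted p 0.0136 by edgeR). Mcm3, part of the replicative helicase, was at 400 to 424 CPM against 278 and 254 (log2 fold change -0.64). The count of 7 was 0 without pMN 1 or iSDmut 2 and 2 to 5 without each of the other libraries. Of 15 cell cycle exit genes, Cdkn1c rose, Gas1 fell and 13 were not called, with 8 negative and 7 positive log2 fold changes. Cdkn1c, an inhibitor of cyclin-dependent kinases, was at 92.3, 83.8 and 95.0 CPM in pMN and at 637 and 569 in iSDmut (log2 fold change 2.74 ± 0.142 SE, adjusted p 4.01e-05 by edgeR). It was called in 16 of 16 alternatives and was at 319 to 440 CPM in iNkx2.2.

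Corepressors that could serve a repressor were examined as a list of 23 with DNA methylation genes. Tle2, Aes and Tle6 rose and Uhrf1 and Dnmt1 fell, 21.7% of the list against 3.54% called over all genes tested. Tle2, a Groucho family corepressor, was at 2.73, 1.58 and 2.46 CPM in pMN and at 12.43 and 11.01 in iSDmut (log2 fold change 2.37 ± 0.255 SE, adjusted p 0.00192 by edgeR). Aes, a short family member without the repeat domain, was at 61.6 to 70.3 CPM against 101 and 128 (log2 fold change 0.81). Tle6 (1.06 to 1.88 CPM against 3.86 and 6.07) ends beside Tle2 on the other strand, and without strand information their reads may be shared at the ends. Uhrf1, which guides the maintenance methyltransferase, was at 416 to 437 CPM in pMN and 267 and 259 in iSDmut (log2 fold change -0.69), and Dnmt1, that enzyme, had a log2 fold change of -0.48. Tle2 and Aes were called in 16 of 16 alternatives, Uhrf1 in 15, Tle6 in 11 and Dnmt1 in 5. Of 16 pancreatic endocrine genes, Insm1 and Chgb, a secretory granule protein, rose, and the call of Chgb (adjusted p 0.038) was made in 1 of 8 fits without a library. Of 19 mitochondrial and stress response genes, Atf4 and Mthfd2 fell, with log2 fold changes of -0.63 and -0.93, a median of -0.60 for the list and each call lost without either iSDmut library.

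**Figure D4:**
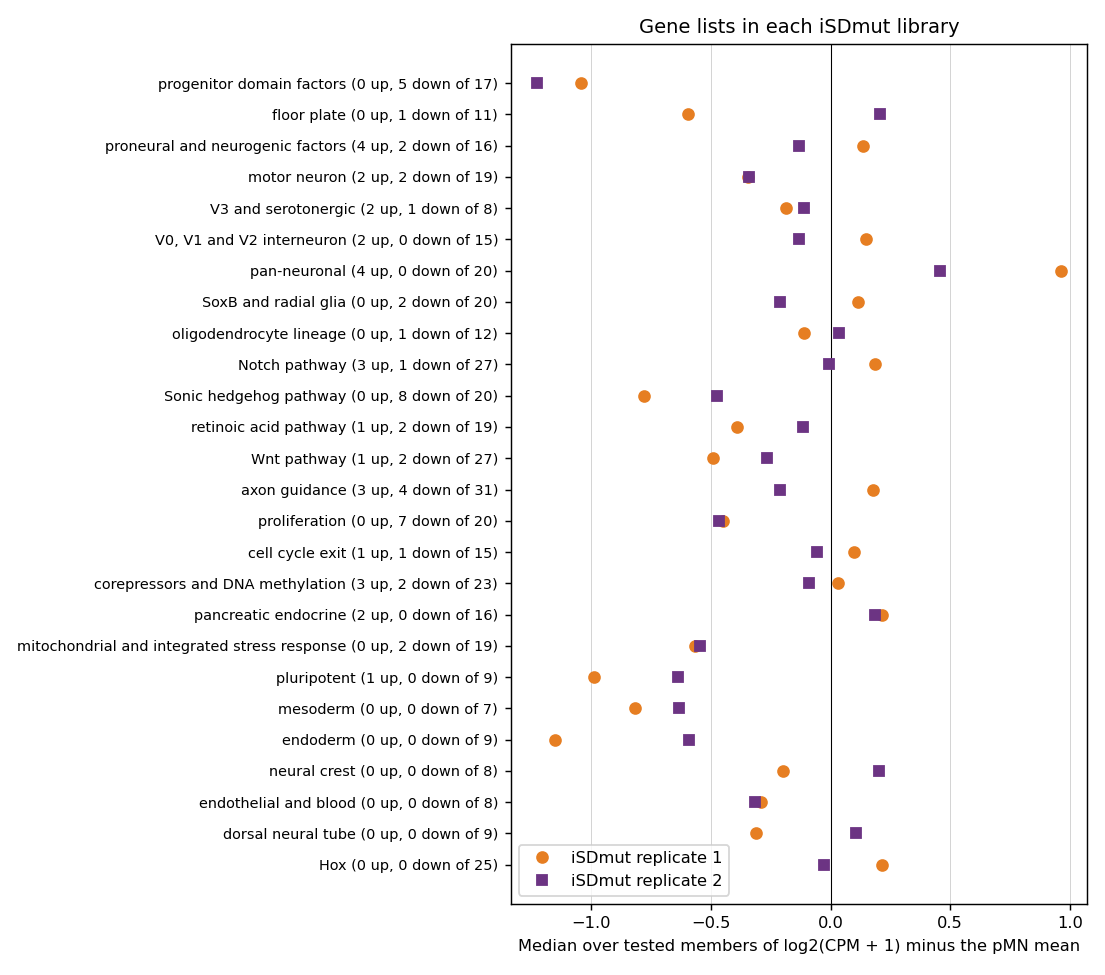
Median over the tested members of each list of log2(CPM + 1) minus the pMN mean, in iSDmut 1 (orange circles) and iSDmut 2 (purple squares), with counts of genes called. The progenitor domain, hedgehog, proliferation and stress response lists are below 0 in both libraries. So are others, among them endoderm (-1.15 and -0.59), mesoderm, pluripotent, Wnt and motor neuron. The pan-neuronal and pancreatic endocrine lists are above 0 in both, while the floor plate list lies at -0.60 in replicate 1 and 0.20 in replicate 2.

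Increases outside the lists were ranked among calls whose log2 CPM, averaged over the 8 libraries, was not under 2. The largest were those of Upk3a, Epha10, Prokr2, Adamtsl2, Rbm24, Fbxo44, S100a13 and Unc80. The average includes the induced libraries, so genes with low levels in pMN could pass. Unc80, for example, was at 0.546 to 1.69 CPM in pMN. Upk3a, a membrane protein of the bladder lining, was at 0.891, 0.971 and 0.254 CPM in pMN, 6.72 in iSDmut 1 and 73.7 in iSDmut 2. The induced libraries were about 11-fold apart, and the log2 fold change of 5.90 (edgeR adjusted p 0.0147) was 3.31 without iSDmut 2. It was not called without any 1 pMN library (adjusted p 0.0613 to 0.0850). The other genes were more alike between libraries. Epha10, an Eph receptor, was at 1.58 to 2.84 CPM in pMN and 24.8 and 15.0 in iSDmut. Prokr2, a prokineticin receptor, was at 1.00 to 1.65 against 8.23 and 13.9, and Adamtsl2, an extracellular matrix protein, at 1.46 to 3.43 against 19.9 and 27.1. Fbxo44 (12.8 and 16.2 CPM in iSDmut), S100a13 (8.62 and 19.4) and the sodium leak channel subunit Unc80 (7.22 and 6.86) had log2 fold changes of 2.89, 2.75 and 2.72. Rbm24, an RNA-binding splicing regulator, was at 4.34, 4.00 and 6.01 CPM in pMN, 34.4 and 38.1 in iSDmut and 9.13 to 13.3 in iNkx2.2. It was higher in iSDmut than in pMN by 2.91 (± 0.223 SE; adjusted p 0.000590 by edgeR) and than in iNkx2.2 by 1.62 (± 0.211 SE; adjusted p 0.0256 by edgeR), a contrast in which 44 genes (0.281%) were called. All but Upk3a were called against pMN in 16 of 16 alternatives.

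The largest decreases outside the lists were those of Pga5, Dmrt1, Cubn, Enpp1, Fgf15 and Peg10. Pga5, a pepsinogen, was at 6.34, 3.16 and 7.70 CPM in pMN and 0.224 and 0.748 in iSDmut (log2 fold change -3.49 ± 0.731 SE, adjusted p 0.0352 by edgeR). Dmrt1, a transcription factor of the germ line, was at 3.23 to 6.55 CPM against 0.280 and 0.998, and Enpp1, an ectonucleotide pyrophosphatase, at 9.16 to 21.1 against 1.51 and 2.66. Cubn, an endocytic receptor of absorptive epithelia including visceral endoderm, was at 100, 47.6 and 93.5 CPM in pMN and 4.59 and 16.7 in iSDmut (log2 fold change -2.89 ± 0.650 SE, adjusted p 0.0459 by edgeR) and was called in 2 of 8 fits without a library, against 3 for Pga5 and 6 each for Dmrt1 and Enpp1. In iNkx2.2 these 4 genes had log2 fold changes from pMN of -0.10, -0.19, -0.70 and 0.08 in the order Pga5, Dmrt1, Enpp1 and Cubn, and their differences between iSDmut and iNkx2.2 did not pass the threshold (adjusted p 0.105, 0.0815, 0.119 and 0.115). Endoderm markers were also lower in iSDmut: Sox17 was at 4.61 to 8.74 CPM in pMN and 0.392 and 1.87 in iSDmut. The 9 endoderm genes summed to 78.8 to 145 CPM in iNkx2.2. Among the pMN libraries, Pga5, Enpp1 and Cubn were lowest in replicate 2, as were the endoderm genes Gata4 and Gata6. Dmrt1 was lowest in replicate 1, as were the endoderm genes Cldn6 and Epcam. Whether endoderm cells account for the 4 genes was not tested. Fgf15, a growth factor of the neural tube (7.24 to 18.0 CPM against 0.784 and 2.29), and Peg10, an imprinted retrotransposon-derived gene (1090, 1386 and 2148 CPM against 260 and 298), were also low in iNkx2.2, at 0.830 to 1.39 and at 355 to 714 CPM. Peg10 had a log2 fold change of -2.47 (± 0.352 SE, adjusted p 0.00785 by edgeR) and was called in 8 of 8 fits without a library, Fgf15 in 4. The authors' FPKM do not show this decrease of Peg10. They are 0, 0 and 372 in pMN 1, 2 and 3, 48.2 and 51.5 in iSDmut and 0 in each iNkx2.2 library. Why counts and FPKM differ was not tested.

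The induced libraries differed from each other most among the calls in 28 genes (5.05% of those called), which were more than 2-fold apart, against 3.94% of all genes tested. Olig1, Pax6, Neurog2, Gap43 and Foxb1, a forkhead factor of the neural tube (43.8 to 49.3 CPM in pMN, 16.7 and 7.02 in iSDmut 1 and 2), were lower in replicate 2. Upk3a, Frzb, Bhlhe22, Aldh1a2, S100a13, Lbx1 and Cubn were higher in it. Foxb1 was named after its values were seen. The 2 libraries came from different lanes, so lane and library cannot be told apart.

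**Figure D5:**
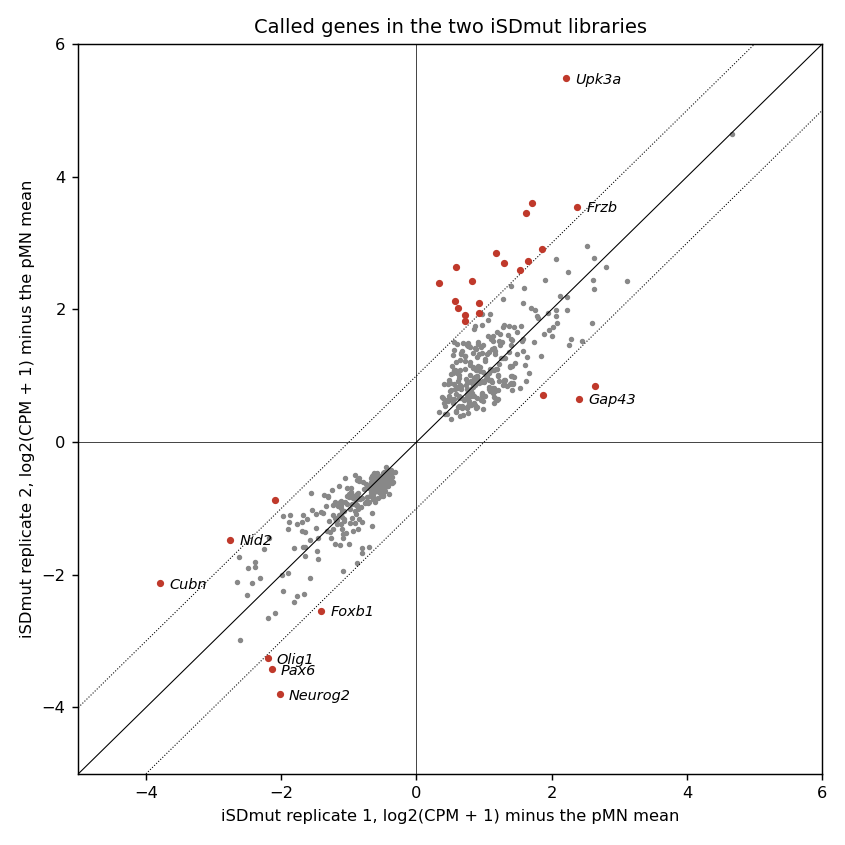
Difference from the pMN mean in log2(CPM + 1) of each of the 554 called genes in iSDmut replicate 1 (x) and replicate 2 (y); the solid line marks equality, dotted lines a 2-fold difference, and red points the 28 genes more than 2-fold apart in CPM. Each called gene has the same sign in both libraries, which a call with 2 iSDmut libraries favours. Upk3a lies at 2.21 and 5.48 and Neurog2 at -2.02 and -3.80.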

How the data were processed

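RNA of 8 mouse progenitor libraries was analysed from the authors' deposited table of whole-number read counts, which were not normalized. The submitters' processing notes name STAR, Cufflinks, DESeq2, edgeR 3.20.9, limma 3.34.9, bedtools 2.17.0 and build mm10. The counting rule and the use of strand are not given in the sources used here. The authors' deposited FPKM values were used to check cell identity, and the authors' deposited log2 fold changes and p-values were compared only as a check: 269 of the 380 genes they call were also called here in the same direction. Log2 CPM values of Nkx2.2 sites deposited by the authors gave site positions only.

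Counts were tested with edgeR 4.0.16 (TMM, filterByExpr, robust quasi-likelihood test) in a model of 3 groups over 8 libraries, with Benjamini-Hochberg adjustment over 15653 genes. Levels are TMM-scaled CPM, and SEs are the absolute log2 fold change over the square root of F. The group members, the gene lists and the tests were chosen with earlier results of these data known. Genes were named as follows: Nkx2-2, the 12 largest called changes in each direction (non-overlapping groups, average log2 CPM not under 2), called list members, and 12 defining genes whatever their result. Cell type markers such as Sox17, and list members not called such as Sp8, Hes1, Hes5 and Smo, were named outside this rule. Alternatives were 2 other scalings (RLE, total library size), no filter or a stricter filter on counts, DESeq2 1.42.0, a replicate block, lane 2 alone, the 2 groups alone and leaving out each library. The fit was tested on simulated counts. Upstream sequences are from RefSeq (GRCm38). A few list members are not reported here.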

Additional observations from a re-analysis of the deposited data

Results flagged for a closer look

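A direct test of iSDmut against iNkx2.2 called 44 genes. Among the named genes were Neurog2 (3.56 higher on the log2 scale), Pax6 (2.77) and Rbm24 (1.62). Rbm24 was called in 11 of 16 alternatives (edgeR or DESeq2 adjusted p up to 0.122), Pax6 in 7 (up to 0.147) and Neurog2 in 6 (up to 0.147). Rbm24, Pax6 and Neurog2 lost the call without pMN 1, without each iNkx2.2 library and without iSDmut 1. The differences in log2 fold change remained between 1.46 and 1.75 for Rbm24, 1.94 and 3.36 for Pax6, and 2.32 and 4.24 for Neurog2 over the 16 alternatives. The iSDmut and iNkx2.2 cells are different lines, so line and transgene cannot be told apart.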

How the results depend on the processing

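Of 80 named genes called in iSDmut against pMN, 0 changed sign in any of the 16 alternatives, 20 were called in each of them and 60 lost the call in at least 1. The count of 554 calls was 1388 with DESeq2, 151 within lane 2, where iSDmut has 1 library that is assumed to vary like the other groups, and 295 with the 2 groups alone; leaving out 1 library gave 171 to 471. The 44 calls of iSDmut against iNkx2.2 became 145 without a count filter, 476 with DESeq2, 243 within lane 2 and 13 with the 2 groups alone, and 1 to 467 when 1 library was left out (467 without iSDmut 2). Some of those fits hold fewer libraries; otherwise the cause was not tested.

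The iSDmut and pMN libraries share only replicate numbers 1 and 2, with correlations of deviations of 0.421 and 0.059. With 2 iSDmut libraries the deviations of 1 mirror those of the other, so these values cannot decide whether the numbers mark pairs. The labels do not say that they do, and the numbers were not taken as pairs. With the replicate number as a block 2626 genes were called against pMN and 528 against iNkx2.2. The block also called Olig2 and Lhx3 lower.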
